A study of Caenorhabditis elegans with 2 samples.

Results

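CEC-7 peaks on chromosome V were described from a chromatin immunoprecipitation sequencing (ChIP-seq) peak list of Caenorhabditis elegans. All peaks that the list placed on V were taken, which gave 550 of 4116. The worms were hermaphrodites of strain fem-2(b245), with the allele on chromosome III, kept at 20 °C. Their stage label is a young adult that contains a germ line, but gravid adults were collected according to the growth protocol. There was 1 ChIP library, made with an affinity-purified rabbit polyclonal antibody against CEC-7 (Y37D8A.11), and 1 input DNA library of the same strain, which was not analysed here. No wild-type or antibody-free library was compared, so no value separates the effect of the fem-2 allele or of the antibody. Whole worms were used, so binding in fewer nuclei and weaker binding in each nucleus cannot be told apart. Read depth is unknown because the list held no counts, and without a replicate no p-value was computed. Every difference below is between peaks of 1 library and carries no spread between worms.

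CEC-7 is a chromodomain protein. The chromodomain is a small fold that in several proteins binds methylated lysines of histone tails, and ChIP-seq maps the genomic stretches where such a protein sits on chromatin. Autosomes of C. elegans have a central part with many broadly expressed genes and a pair of arms that recombine more often, where repeats and methylated lysine 9 of histone H3 are enriched. Chromosome V is the longest chromosome and is known for large families of chemoreceptor genes, most of which act in sensory neurons. RefSeq (assembly WBcel235) listed 4995 of the 17241 autosomal protein-coding genes on V, more than on any other autosome. It also placed there 888 of the 1275 autosomal genes with a name from a chemoreceptor family (69.6%). Because the peaks lie on another assembly, WS220, no peak was assigned to a gene, and no sequence was read for any peak.

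Chromosome V had fewer and smaller groups of CEC-7 peaks than the other autosomes, while the density of single peaks was higher or lower than elsewhere depending on the rule. It made up 25.3% of the summed length of the 5 autosomes, where the extent of a chromosome is taken to the end of its last peak, and it held 13.5% of their peaks and 11.5% of their covered bases. The peaks covered 1.43 Mb, or 6.87% of V, against 18.0% of the other 4 autosomes together. Peak density was 26.4 per Mb on V and 57.3 per Mb on the others, a ratio of 0.46. Set against gene number, V had 110 peaks per 1000 RefSeq protein-coding genes, and the other autosomes had 219 on II, 242 on IV, 349 on I and 369 on III.

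The shortfall could be divided between runs, peaks per run and width. A run is a series of peaks with no gap over 10 kb, measured edge to edge, and it may hold a single peak. V had 12.0 runs per Mb against 17.0 on the other autosomes (a ratio of 0.71), a mean of 2.20 peaks per run against 3.37 (0.65), and a mean peak width of 2606 bp against 3143 bp (0.83). The product of these 3 ratios is the ratio of coverage, 0.38. The split between peak number and width depended on where the caller broke peaks. After merging within 1000 bp, the ratio of peak density rose from 0.46 to 0.54. Median widths were then 2650 bp on V and 3704.5 bp elsewhere, against 2002 and 2346 bp as deposited. Islands, the runs of 2 or more peaks, were the runs that were scarce. V had 131 islands, or 6.28 per Mb, whereas the other autosomes together had 11.7 per Mb. Single peaks numbered 5.71 per Mb on V and 5.30 per Mb elsewhere. Their order depended on the rule. With gaps up to 5 kb the values were 7.91 and 8.43 per Mb, and with gaps up to 20 kb they were 4.08 and 2.50. Among peaks at or above the median score of the list they were 5.52 and 7.18, and after merging within 1000 bp they were 7.29 and 8.08.

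**Figure D1:**
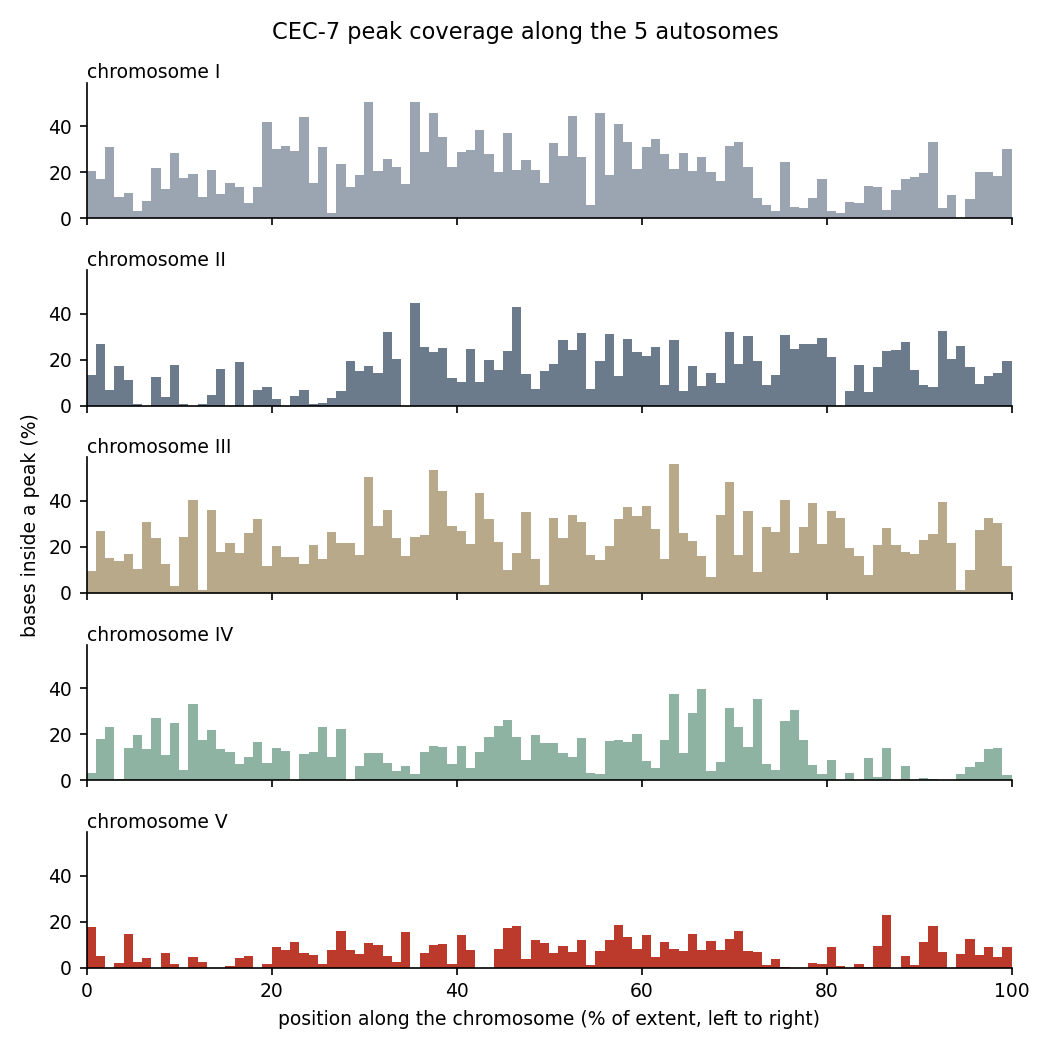
Percent of bases inside a CEC-7 peak (vertical axis) in 100 equal bins along the extent of each autosome (horizontal axis, percent of extent). The highest bar on V reaches 23.2%, and 6.87% of V was covered in all, against 12.6% to 24.1% of the other autosomes.

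Each 1 Mb window of V was sparsely covered. Of its 20 full 1 Mb windows, the most heavily covered reached 11.7%, and 46 of the 60 full windows of the other autosomes lay above that value. No window of V had 40 peaks or more, whereas 49 of the 60 other windows did. The 3 best covered windows of V were 12 to 13 Mb (11.7%, 36 peaks), 14 to 15 Mb (10.7%, 39 peaks) and 13 to 14 Mb (10.3%, 32 peaks). The 3 least covered were 2 to 3 Mb (1.83%, 7 peaks), 3 to 4 Mb (2.16%, 7 peaks) and 15 to 16 Mb (2.75%, 15 peaks).

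By coverage, these windows formed a middle stretch, called the plateau here, with a trough on either side. The bounds of the stretches were chosen after the windows had been seen. The plateau was not level. Its windows from 4 to 9 Mb had 6.73% to 7.63% coverage, and those from 9 to 15 Mb had 8.51% to 11.7%. The former were like the end windows, with 7.27% at 0 to 1 Mb, 7.08% at 18 to 19 Mb and 8.11% at 19 to 20 Mb. In peak number the bounds were less sharp. Windows 7 to 8 and 8 to 9 Mb of the plateau held 19 peaks each, and window 17 to 18 Mb of the right trough held 21. From 4 to 15 Mb, 333 peaks covered 8.79% of the sequence at 30.3 peaks per Mb. The left trough, from 1 to 4 Mb, had 30 peaks, 10 per Mb, and 2.59% coverage. The right trough, from 15 to 18 Mb, had 52 peaks, 17.3 per Mb, and 3.46% coverage. Both ends rose again. The first 1 Mb had 38 peaks and 7.27% coverage, and from 18 Mb to the last peak there were 97 peaks and 7.44% coverage. Density at the ends was therefore above that of the plateau, with 38 and 34.1 peaks per Mb, but the peaks were narrower. Their median width was 1504 bp in the first 1 Mb and 1914 bp from 18 Mb on, against 2314 bp in the plateau. The left windows of the plateau were like the ends, with medians of 1555 bp at 4 to 5 Mb and 1937 bp at 5 to 6 Mb. Its other windows had 2105 to 3213 bp. None of the 38 peaks of the first 1 Mb was wider than 5 kb. Such broad peaks made up 10.8% of the plateau (36 of 333), 13.3% of the left trough (4 of 30), 3.85% of the right trough and 5.15% of the right end.

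In 3 equal segments of the extent, the peak numbers of V were close to one another, while widths and scores were not. The score is the authors' value for each peak and ranks peaks within the list. The central segment (6.95 to 13.9 Mb) had a median width of 2573 bp, a median score of 183 and 9.01% coverage. The left segment had 1733 bp, 125 and 5.37%, and the right segment had 1911 bp, 133 and 6.25%. The central segment held 30 of the 47 broad peaks. Each segment of V was below the corresponding segment of every other autosome in median width, median score and coverage, except that the right segment of I had a median width of 1899 bp.

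Long stretches of V carried no peak. Gaps between neighbouring peaks of at least 100 kb, called empty stretches here, numbered 52 on V and 87 on the other 4 autosomes. They added up to 10.5 Mb, or 50.4% of V, against 35.4% of IV, 28.6% of II, 14.7% of I and 9.61% of III. The median length of an empty stretch was 155 kb on V, below the 161 kb of II and above the 146 kb of IV, 133 kb of I and 118 kb of III. Of the 10 longest autosomal gaps, 8 were on V. The longest ran from 15766877 to 16359023 (592 kb), followed by 8615327 to 9176170 (561 kb) in the middle of the plateau. The third, from 2704210 to 3216256 (512 kb), and the fourth, from 1380744 to 1816259 (436 kb), lay in the left trough. The fifth, from 18128797 to 18529572 (401 kb), lay near the right end. Windows of 250 kb gave the same picture. Of 83 such windows on V, 8 held no peak midpoint, and of the 244 on the other autosomes, 1 did.

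**Figure D2:**
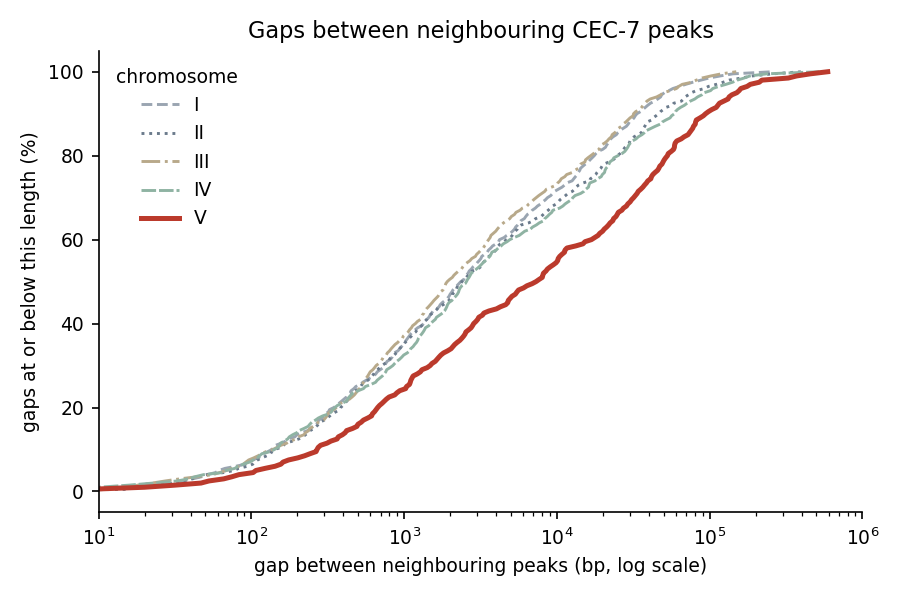
Cumulative percent of gaps (vertical axis) at or below a given length in bp (horizontal axis, log scale) between neighbouring CEC-7 peaks, 1 line per autosome. From the lower quartile to the upper one the line of V lies to the right of the others, with a median gap of 7295 bp against 1914 to 2556 bp.

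Peaks on V were spaced more widely at each quartile. The median gap was 7295 bp on V and 2289 bp on the others, the lower quartiles were 1036 bp and 519 bp, and the upper quartiles were 41.6 kb and 14.3 kb. Gaps under 1 kb made up 24.4% of the gaps of V and 35.2% of those elsewhere. Gaps under 100 bp, where the caller ended a peak and began the next almost at once, made up 4.37% and 7.24%. A neighbour within 5 kb was present for 70% of V peaks and 85.3% of the others.

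Islands on V were small. They held 431 peaks, a mean of 3.29 per island against 4.44 elsewhere, had a median span of 10.9 kb and together spanned 8.52% of the extent. The largest had 9 peaks. The other autosomes had 49 islands of 10 or more peaks, up to 23 on III, and these held 18.8% of their peaks. Its 9-peak islands lay at 104184 to 131355 in the left tip, at 16789061 to 16812291 inside the right trough and at 17848302 to 17880867 at the edge of that trough. Of the islands with 8 peaks, a pair stood close together at 937066 to 962925 and 989929 to 1017565, on the boundary of the left end and the left trough. The others lay at 4608190 to 4626251, 18029985 to 18074083 and 18979364 to 19010314. Of these 8 islands, the one at 4608190 was in the plateau.

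By covered bases the order of islands changed. The island with most covered bases, 26.4 kb from 7 peaks, spanned 49.8 kb in the plateau (12015724 to 12065529), and its highest score was 971. It was followed by an island of 5 peaks at 13650453 to 13680425 with 19.8 kb covered, whose median score of 671 was above the 335.7 that marks the upper quartile of V. The 9 peaks of the left tip came next with 19.3 kb, followed by the islands at 18029985 (17.6 kb) and 18979364 (17.5 kb). Peaks in the larger islands were narrower. The median width on V was 2164 bp for single peaks, 2151 bp in runs of 2 to 3, 1919 bp in runs of 4 to 6 and 1567 bp in runs of 7 to 9. The corresponding widths on the other autosomes were 2535, 2510, 2384 and 2352 bp. In their runs of 10 or more, which V lacked, the median width fell to 2003.5 bp.

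**Figure D3:**
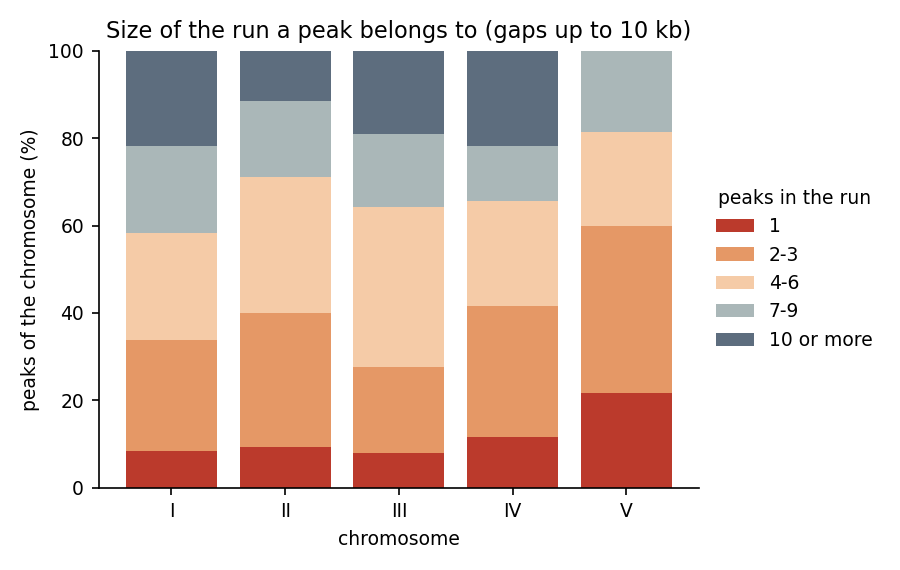
Percent of the peaks of each autosome (vertical axis) that belong to a run of 1, 2-3, 4-6, 7-9 or 10 or more peaks, where a run allows gaps up to 10 kb. On V 21.6% of peaks were single and 0% lay in runs of 10 or more, against 9.25% and 18.8% on the other 4 autosomes together.

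Lone peaks were more frequent on V. With at least 50 kb free of peaks on either side, V had 31 lone peaks (5.64% of its peaks), and the other autosomes together had 36 (1.02%). Their median score was 159, and 10 of the 31 were above the autosomal median score of 197. Of all 550 V peaks, 210 were above that median, so the lone peaks did not stand out in this count. The lone peak with the highest score, 1024, spanned 723938 to 728023, with 362 kb empty to its left and 177 kb to its right. The next was a 7.36 kb peak at 3434170 to 3441531 (score 879) in the left trough, 216 kb after its left neighbour. Others followed at 14351633 (804), 2482335 (799.5), 2374390 (555), 17736245 (515), 13552156 (312), 15320419 (287), 7718992 (255) and 2008118 (234), each given by its start and score. The most remote peaks were not always strong ones. The lone peak at 15765851, just before the longest empty stretch, scored 78.4.

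Peaks on V were narrower than on the other autosomes. The median width was 2002 bp with quartiles of 1439 and 3340 bp, and the range ran from 967 to 14019 bp. Among the others, the median ranged from 2177 bp on IV to 2565 bp on III. The difference was smaller among peaks at or above the median score of the list, with medians of 3595 bp on V and 3753.5 bp elsewhere. Broad peaks, over 5 kb, numbered 47 on V, or 8.55% of its peaks, against 11.1% on IV, 15.9% on II, 17.5% on I and 20.3% on III. The widest V peak, 14.0 kb at 7223760 to 7237778, scored 924. The second, 13.1 kb at 9776276 to 9789365, scored 127, below the median of V. The other 8 of the 10 widest measured from 9.93 kb, at 14447796 to 14457722, down to 7.66 kb, at 17986683 to 17994346, which was the only one of the 10 beyond 15 Mb.

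Scores on V were also low. The median score was 145 (quartiles 86.3 and 336), and the medians of the other autosomes ranged from 181 on IV to 235 on III. Of the V peaks, 32% scored no more than 99.4, the lower quartile of the autosomal peaks, and 18.4% scored above their upper quartile of 432. Chromosome IV was like V in the latter share, with 18.7%, and had 26.9% of its peaks at or below the lower quartile. A V peak had the higher score in 42.3% of pairs with a peak of another autosome, where 50% means no difference, from 38.7% against III to 46.2% against IV. Part of this went with width, since score and width had a Spearman correlation of 0.78 across the 550 peaks of V, which share 1 library. Among pairs of peaks in the same width class the V peak was higher in 46.9%. That value pools all pairs, so the class of 1 to 2 kb, with most peaks, weighs most. By class the percent was 49.0% at 1 to 2 kb, 42.0% at 2 to 3 kb and 43.0% at 3 to 5 kb. It was 41.3% at 5 to 8 kb and 57.9% over 8 kb. From 2 to 8 kb it was thus near the value without width classes. In the class of 1 to 2 kb, which held 49.6% of V peaks and 40.3% of the others, the median scores were 93.1 and 96.5. In the class of 5 to 8 kb they were 723 on V, with 39 peaks, and 844 elsewhere. The 8 V peaks over 8 kb had a median of 861 against 643.

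**Figure D4:**
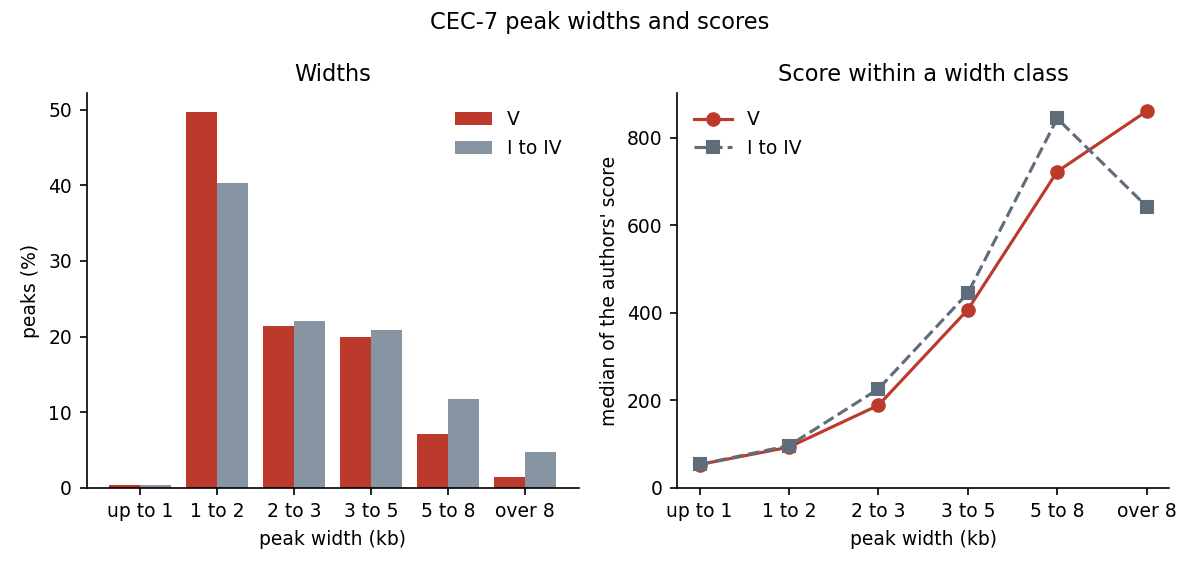
Left, percent of peaks in each width class in kb for V and for autosomes I to IV together. Right, median of the authors' score in each class for the same peaks, where the V medians lie below those of the others from 2 to 8 kb and above them over 8 kb, a class with 8 V peaks.

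The top of the score range was nevertheless reached on V. Chromosome V held 550 of the 4116 peaks of the list and 13.5% of the autosomal ones. It had 2 of the 10 highest peaks of the list (20%) and 3 of the 25 highest (12%). Further down its share was lower, with 6 of the 100 highest (6%) and 39 of the 500 highest (7.80%). The highest on V, 2894, belonged to an 8.83 kb peak at 7916534 to 7925358. It was followed by 2407 for a 7.53 kb peak at 10018629 to 10026156 and 1986 for a 6.37 kb peak at 12246818 to 12253182. The first of these was the last peak of its run, with 80.7 kb empty to its right, and the peak that came second began an empty stretch of 103 kb. The fourth on V, 1555, was unlike the others, since it was only 3003 bp wide and lay at 18882120 to 18885122 near the right end, with neighbours 57 bp and 365 bp away. The remaining 6 of the 10 highest scored from 1143 to 1469 and lay between 8565244 and 14457722. In all, 9 of the 10 highest were inside the plateau, where 333 of the 550 peaks lay.

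V was also set beside windows of the other autosomes with like numbers of peaks. Of the full 1 Mb windows, 13 windows of V and 6 of the other autosomes had 20 to 39 peaks. In these, 20.5% of the 424 V peaks and 20.6% of the 189 others were single, and 71.5% and 75.1% had a neighbour within 5 kb. Median widths were 2060 and 2294 bp and median scores 149 and 171. In windows with under 20 peaks, 27.3% of 99 V peaks and 23.4% of 77 others were single, and 61.6% and 70.1% had a neighbour. Widths and scores were there in the other order, with a median width of 1908 bp on V and 1617 bp elsewhere, and median scores of 138 and 117. The bounds of 20 and 40 peaks were chosen after the data had been seen, few windows of other autosomes entered, and the number of peaks in a window itself bears on the shares of single peaks and of neighbours.

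The left tip of V was richer in peaks than the mean of the rest of V. Its first 250 kb held 16 peaks, or 64 per Mb, and 14.8% of its bases lay inside one, whereas the rest of V had 25.9 peaks per Mb. The excess in peak number depended on where the caller broke peaks. It was smaller after merging within 1000 bp, with 7 peaks in the tip and 19.95 peaks per Mb on V as a whole. The tip was not the fullest part of V, where a window of 250 kb held up to 20 peak midpoints. The tips of the other autosomes held 14 to 18 peaks and had 13.1% to 22.5% coverage. For all peaks of the first 250 kb, V had 16 against a mean of 15.75 on the others. Under each alternative run V had fewer than that mean, by a small or a large margin. The first 500 kb held 22 peaks on V against a mean of 34.75 on the others, and the first 100 kb held 0 against 4.5. Within 250 kb, V had 6 against 7.25 among peaks at or above the median score of the list, and 7 against 10 after merging within 1000 bp. The first peak of V began at 104184, so that 104 kb of the tip carried none, and all 16 peaks fell within 104184 to 200051. They formed an island of 9, a single peak and an island of 6, after which 98.2 kb were empty.

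Within the tip island of 9, scores rose and fell from peak to peak. The peaks at 104184, 106578 and 108894 scored 124, 85.7 and 185 and were 1169 to 1665 bp wide. The next, 3.18 kb at 110538 to 113718, scored 458, and after a narrow peak at 114248 (69.9) came a 3.98 kb peak at 115481 (392) and a 3.88 kb peak at 119529 to 123404, the highest of the island with 504. The island ended with peaks at 128487 (94.4) and 129748 (137), 7 bp apart. The single peak at 165852 to 167411 scored 96.3. The second island opened with the highest peak of the tip, 4.39 kb at 178237 to 182621 with a score of 1062. It went on with peaks at 182993 (60.3), 187078 (315), 191960 (618), 196270 (155) and 198555 (152). Of the 16 tip peaks, 6 were above the autosomal median score, a share near that of all V peaks (210 of 550). None of the 16 was wider than 4385 bp. The right end differed from the left one. Counted back from the end of the last peak, the final 250 kb held 6 peaks and 7.69% coverage, and the last peak, 20846105 to 20848144, scored 62.1.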

How the data were processed

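The deposited list held 1-based starts and ends and, as score, a value from the authors' peak caller that has no unit per the file headers, so it was used to rank and describe peaks and no ratio was formed from it. Peaks were called with MACS on WormBase WS220, per the file headers, and reads were aligned with BWA to ce10, per the submitters' processing notes. Versions, read filters, duplicate handling and the use of the input as control were not stated in these sources. The caller can end and restart a peak within a few bases, which raises peak numbers and lowers widths, so peaks within 1000 bp were also merged. Chromosome extents ran from position 1 to the end of the last peak. Gaps were the bases between neighbouring peaks. Named regions were the 10 highest scoring and 10 widest peaks, the 5 islands with most peaks (8 with ties) and with most covered bases, the 5 longest gaps, the peaks of the first 250 kb, the 10 lone peaks of highest score, the last peak and the 3 highest and lowest windows. The members and all measures were chosen with earlier results of these data known. RefSeq names were counted by chromosome only, for symbols of the families sra, srab, srb, srbc, srd, sre, srg, srh, sri, srj, srm, srn, srr, srsx, srt, sru, srv, srw, srx, srxa, srz and str. The calculations were tested on simulated lists and ran in Python 3.11.15 with pandas 2.3.3, numpy 2.4.6, matplotlib 3.10.9 and scipy 1.17.1.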

Additional observations from a re-analysis of the deposited data

How the results depend on the processing

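Of 64 alternative values, 31 stayed near the value as deposited, 26 moved and 7 changed their order against the other autosomes. Near meant inside an exact 95% binomial interval for shares of peaks, peak density and its ratio, medians and the percent of pairs. That interval treats peaks as independent although they cluster, and it took the percent of pairs as a share of the 550 V peaks. For counts, single peaks per Mb, shares of covered or empty bases and the ratio of widths, near meant within 1.5 times. Among the peaks at or above the median score of the list, V held 10.3% of autosomal peaks, with 10.1 peaks per Mb, a density ratio of 0.34, a median width of 3595 bp, a median gap of 41392 bp, 34.6% of peaks with a neighbour, 42 islands with 45.5% of the peaks, 5.52 single peaks per Mb (7.18 elsewhere), 76.2% in empty stretches and 6 peaks in the left tip (a mean of 7.25 elsewhere). After merging within 1000 bp the same measures were 15.4%, 19.95 per Mb, 0.54, 2650 bp and 20344 bp, then 50% with a neighbour, 63.5% in islands, 7.29 single peaks per Mb (8.08 elsewhere) and 7 in the tip (10 elsewhere). Without I, II, III or IV in turn, the share of V was 17.9%, 16.6%, 17.7% and 16.8%, by construction, since fewer peaks were compared. A neighbour was found for 54.5% within 2 kb and 78.4% within 10 kb. Islands held 70% of V peaks with gaps up to 5 kb and 84.5% with gaps up to 20 kb. Single peaks were 7.91 per Mb at 5 kb, below the others, and 4.08 at 20 kb, above their 2.50. Stretches of at least 200 kb made up 26.7% of V. Pairs within a width class gave 46.9%, pooled over the classes. The left tip held 0 peaks in the first 100 kb (a mean of 4.5 elsewhere) and 22 in the first 500 kb (34.75 elsewhere). V stayed below the other autosomes in density, covered share and median width, and above them in median gap and empty share, under all alternatives run. For median width the margin was small among peaks at or above the median score (3595 bp against 3753.5 bp elsewhere). The single-peak alternatives were chosen after seeing the data. No paired analysis was possible because only 1 ChIP library gave peaks. Occupancy under the authors' cutoff was not detectable.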
